A study of Mus musculus with 81 samples.

Results

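Thymic lymphomas that arose in 3 mice lacking p53 were sampled at 4 places each, and the 12 resulting RNA libraries are described here: tumour 857 (regions 3, 5, 7 and 9), tumour 869 (regions 1, 3, 5 and 7) and tumour 870 (regions 1, 3, 5 and 7). They are 12 of the 81 libraries of the series, taken as every multifocal biopsy of a p53-/- lymphoma from a doxycycline-treated mouse. The mice were p53-/- and carried a Plk4 transgene at Col1a1, the doxycycline-dependent activator rtTA at Rosa and centrin-GFP at Rosa, on a C57BL/6 x 129S4Sv/Jae background. Doxycycline was given for 2 weeks from an age of 30 days, so Plk4, the kinase that sets centriole number, could be induced for a limited time, and the biopsies were cut from frozen tumours that formed later. The comparison arms carried the same 3 transgenes. They were 4 untreated p53-/- lymphomas (17 regional libraries), 6 p53+/- lymphomas given the same doxycycline course (25 regional libraries) and 8 untreated p53+/+ normal thymuses with 1 library each. The labels name no cell type that restricts the transgene, and the age at collection is not given in the sources used here. The question was how much of the expression of a tumour differs from one place in it to another, and which genes and functions carry that difference.

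A T-cell lymphoma descends from a thymocyte, and a thymocyte carries the marks of its own history. The T-cell receptor beta chain is assembled by joining 1 variable (Trbv), 1 diversity and 1 joining (Trbj) segment on chromosome 6, so a clone that rearranged before it expanded expresses the same Trbv segment in all its descendants. Notch1 is a receptor that commits progenitors to the T lineage; its intracellular part acts with the DNA-binding protein Rbpj on targets such as Dtx1, Hes1 and Heyl. Thymic epithelium, dendritic cells, macrophages and fibroblasts surround thymocytes in the normal organ.

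The 4 Trbv segments that led in at least 1 of the 12 regions are shown because the clearest regional differences in tumours 869 and 870 lie in which of them was expressed. Each line gives the last 270 bases of the segment's V exon, 5′ to 3′ on the plus strand of chromosome 6, read from the GENCODE M21 transcripts (GRCm38). Capitals mark the last TGTGC of each, which begins with the codon of the conserved cysteine near the joining end. The intervals are chr6:41048559-41048828 (Trbv3), chr6:41163287-41163556 (Trbv17), chr6:41116199-41116468 (Trbv13-1) and chr6:41121563-41121832 (Trbv13-2).
Trbv3: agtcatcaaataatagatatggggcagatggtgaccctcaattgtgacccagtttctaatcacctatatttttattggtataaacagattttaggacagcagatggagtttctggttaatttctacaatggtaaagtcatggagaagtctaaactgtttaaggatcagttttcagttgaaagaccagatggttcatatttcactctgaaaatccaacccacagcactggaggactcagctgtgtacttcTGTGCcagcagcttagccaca
Trbv17: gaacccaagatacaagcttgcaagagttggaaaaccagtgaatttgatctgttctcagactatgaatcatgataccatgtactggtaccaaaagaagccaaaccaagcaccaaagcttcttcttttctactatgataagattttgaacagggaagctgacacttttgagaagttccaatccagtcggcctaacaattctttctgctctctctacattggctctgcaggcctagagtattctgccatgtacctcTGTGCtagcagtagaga
Trbv13-1: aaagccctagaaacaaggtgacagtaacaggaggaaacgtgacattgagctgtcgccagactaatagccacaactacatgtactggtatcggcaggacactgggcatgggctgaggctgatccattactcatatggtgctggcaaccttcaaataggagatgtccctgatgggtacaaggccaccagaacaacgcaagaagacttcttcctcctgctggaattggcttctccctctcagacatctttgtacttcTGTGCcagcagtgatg
Trbv13-2: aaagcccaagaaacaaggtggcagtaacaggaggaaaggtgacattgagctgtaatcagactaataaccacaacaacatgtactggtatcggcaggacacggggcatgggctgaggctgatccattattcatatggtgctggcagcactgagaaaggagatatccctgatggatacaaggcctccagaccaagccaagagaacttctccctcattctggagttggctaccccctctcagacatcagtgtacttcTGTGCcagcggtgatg
Trbv13-1 and Trbv13-2 are near copies. Their V exons matched at 261 of 294 aligned bases (88.8%), and their longest shared run was 31 bases with no shared stretch of 50. The other pairs matched at 52.1% to 60.6% of aligned bases. Assignment of reads between Trbv13-1 and Trbv13-2 is therefore less certain than between the others.

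Depth was uneven and some libraries stood apart. The libraries of tumour 857 held about 3158600, 1030430, 5026880 and 1710840 expected counts in regions 3, 5, 7 and 9, against 8845440 to 17674100 in tumours 869 and 870. A floor of 3 counts corresponded to 2.91 CPM, that is counts relative to the library sum, in region 5 of tumour 857 and to 0.17 CPM in region 5 of tumour 870. Ribosomal RNA took 0.606% to 1.65% of counts in tumour 857 and 0.205% to 0.563% in the others. Region 3 of tumour 869 resembled the other regions of its own tumour less than any other region did. Several list counts and the comparisons between arms are given with and without it. The excess SDs of single genes that rest on it are given with it only. No 2 libraries of a tumour agreed within counting noise (chi-square per degree of freedom from 4.98 to 127), so all 12 were kept. Mice 869 and 870 are labelled female, but all 8 of their libraries held Y-linked transcripts (summed Ddx3y, Eif2s3y, Kdm5d and Uty between 42 and 144 CPM) and Xist at no more than 0.348 CPM. Of 19 mice labelled female in the series, these were the only 2 with more than 20 CPM of those Y-linked genes. Whether the sex labels or the assignment of these mice are wrong was not tested; if the assignment is, the genotype and treatment of 2 of the 3 tumours, and with them every comparison between arms, are in doubt. The knocked-out gene was still counted: Trp53 stood at 51.9, 52.4, 71.8 and 59.6 CPM in tumour 857, at 47.7, 38.2, 41.1 and 42.5 CPM in tumour 869 and at 32.4, 29.3, 17.7 and 20.6 CPM in tumour 870. These were below the normal thymus median of 119.6 CPM, and a total per gene does not show which exons are present. Plk4 lay between 39.2 and 95.4 CPM in the 12 regions, with 10.8 to 52.7 CPM in normal thymus. T-cell identity was present throughout, since the 12 markers of that list (Cd3d, Cd3e, Lck, Thy1 and others) summed to 4475 to 5992 CPM in every region.

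Most regions were more like the others of their own tumour than like those of another. Pearson's r of log2(CPM + 1) across 10909 genes with a mean of at least 5 CPM ranged from 0.891 to 0.99 over the 18 pairs within tumours, with a median of 0.945. It ranged from 0.803 to 0.902 over the 48 pairs between tumours, with a median of 0.854. These are descriptions across genes of libraries that share mice and differ in depth. In tumour 869, regions 1, 5 and 7 correlated at 0.977 to 0.99 with each other, and region 3 at only 0.891 to 0.903 with them. In tumour 870, regions 1 and 3 correlated at 0.965, regions 5 and 7 at 0.98, and the 4 pairs across these at 0.913 to 0.952. In tumour 857 the 6 pairs fell between 0.932 and 0.965 with no such division. When each region was set against all other libraries of the series, 11 of 12 had their nearest neighbour in their own tumour. The exception was region 3 of tumour 869, which was nearer to region 1 of the untreated p53-/- tumour 325 (0.925) than to its nearest own region (0.908), both over the 11351 genes kept for all arms. The labels do not say whether this library holds another clone, a mixture or another sample, and this was not tested, so each result that rests on it carries that limit.

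**Figure D1:**
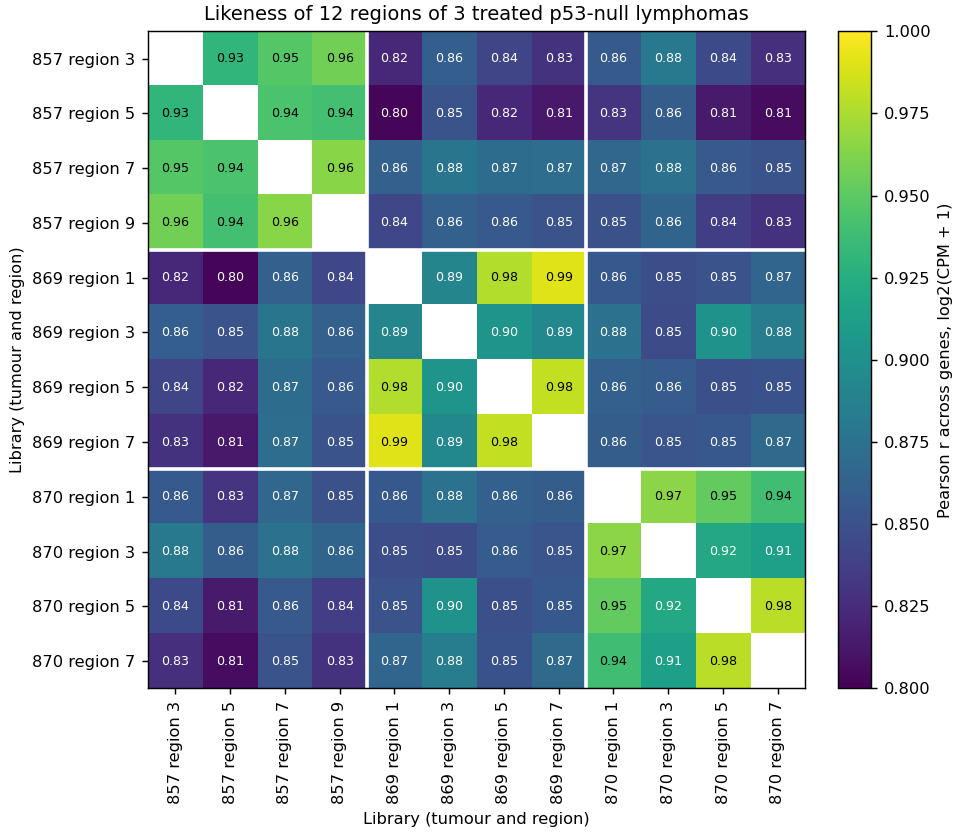
Pearson's r of log2(CPM + 1) across 10909 genes for each pair of the 12 regional libraries; white lines separate the 3 tumours and the diagonal is left blank. Tumour 869 shows regions 1, 5 and 7 close together (0.977 to 0.99) and region 3 apart from them (0.891 to 0.903). Tumour 870 shows regions 1 and 3 apart from regions 5 and 7.

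For a typical gene, variation among regions of a tumour and variation between tumours were of similar size. The median standard deviation (SD) of log2(CPM + 1) among regions of 1 tumour was 0.30, of which counting alone would give a median SD of 0.12, and the median SD between tumours was 0.35. The median within-tumour share of the variance was 41.1%, and 4447 of 10909 genes (40.8%) varied more within than between tumours. That share rests on tumour 857 and on depth: without that tumour the median was 67.8%, and with all libraries thinned to the depth of the shallowest it was 51.5%. Differences among the 3 tumours, tested with regions as replicates, passed an adjusted p of 0.05 in 7042 of 15464 genes (45.5%; edgeR quasi-likelihood F-test with Benjamini-Hochberg adjustment). The regions of a tumour share a mouse, so this test compares these 3 tumours and says nothing about the treatment.

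The 6 genes named for the largest between-tumour component show what separated the tumours. Crmp1, a protein of neuronal growth cones, stood at 71.3 to 227.7 CPM in the 4 regions of tumour 869 and at no more than 7.01 CPM in the other 8. Cyp2b23, a cytochrome P450, stood at 47.7 to 85.8 CPM in tumour 869, 10.45 to 15.1 CPM in tumour 857 and no more than 0.453 CPM in tumour 870. Smoc2, a matrix protein, and Ripk4, a kinase of epithelial differentiation, were also higher in every region of tumour 869 than in any other region, at 120 to 256.9 CPM and 28.9 to 118.3 CPM against at most 8.73 and 2.38 CPM. Cpsf4l lay at 96.7 to 156.4 CPM in tumour 870, 5.37 to 49.4 CPM in tumour 857 and no more than 0.791 CPM in tumour 869. Ptcra, the pre-T-cell receptor alpha chain, lay at 67.1 to 140.4 CPM in tumours 857 and 870, but at 0.905, 11.4, 0.628 and 0.577 CPM in regions 1, 3, 5 and 7 of tumour 869. Its region 3 again stood between its own tumour and the others. These levels are a description, since the genes were chosen on the same libraries.

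A gene was called region-variable when its SD among regions of a tumour, after the counting variance was removed (the excess SD), reached 0.5 on the log2 scale. By that rule 1633 of 10909 genes (15%) were region-variable over the 3 tumours, and 593 at the stricter 0.75. Taken alone, tumour 857 had 1362 such genes (12.5%), tumour 869 had 1373 (12.6%) and tumour 870 had 1898 (17.4%). Of the 10909 genes, 279 reached it in all 3 tumours, 848 in exactly 2 tumours and 2100 in exactly 1 tumour. Between tumours 869 and 870, 648 were shared, 47.2% of the calls of tumour 869 and 34.1% of those of tumour 870. Tumours 857 and 869 shared 496 (36.4% and 36.1% of their respective calls), and tumours 857 and 870 shared 541 (39.7% and 28.5%). The genes at the threshold had excess SDs of 0.50 on either side of it. Each region has 1 library, so a single region's level has no replicate and no test.

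The called genes divided the regions in different ways. In tumour 869, the widest gap in level set region 3 above the other regions for 765 of 1373 genes (55.7%) and below them for 325 (23.7%). In tumour 870, region 3 lay below the other regions for 624 of 1898 genes (32.9%), regions 5 and 7 lay above regions 1 and 3 for 582 (30.7%), and the reverse held for 166 (8.75%). In tumour 857, the most frequent division was region 5 below the others, for 403 of 1362 genes (29.6%), and region 5 is the shallowest library. Region 3 lay above the others for 181 genes (13.3%) of that tumour.

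The expressed beta-chain segments divided tumours 869 and 870 along the same lines. Percentages are of all counts on 35 Trbv segments, and Wilson 95% intervals cover counting error only. In tumour 857 Trbv13-1 led in all 4 regions, with 80.8% in region 3, 74.4% in region 5 (72.4% to 76.3%, 1919 counts), 88.4% in region 7 and 81.7% in region 9. In tumour 869 Trbv3 took 95.2%, 94.7% and 93.6% in regions 1, 5 and 7. In region 3 it took 47.6% (46.1% to 49.1%, 4484 counts), and Trbv13-2 took 35.4% there against no more than 0.129% in the other regions of the tumour.

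Tumour 870 was led by different segments in different regions. Trbv17 took 91.8% in region 1 and 91.2% in region 3, while Trbv13-2 took 66.6% in region 5 (65.6% to 67.5%) and 74.3% in region 7 (73.3% to 75.2%). Trbv17 was still at 20.1% in region 5 and was at 0.26% in region 7. The joining segments divided the same way, on few counts: Trbj1-6 held all 7 counts in region 1 and all 17 in region 3, whereas Trbj2-2 held 72 of 84 in region 5 and 104 of 113 in region 7. In normal thymus Trbv13-2 took 10.2% to 17%, Trbv17 2.98% to 3.68% and Trbv3 4.54% to 6.16% of Trbv counts in 8 mice, so every leading segment named here was above its normal range. Region 3 of tumour 869 thus held both a share of Trbv3 and a share of Trbv13-2 above the normal range.

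**Figure D2:**
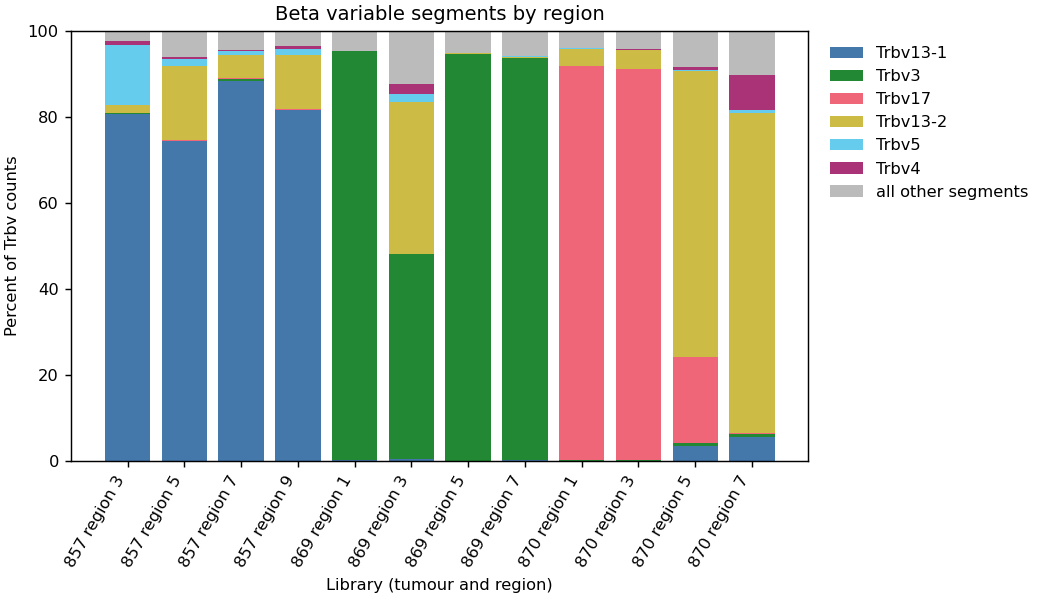
Percent of all Trbv counts on each named variable segment (bars stacked to 100%) in the 12 regions. Tumour 857 is led by Trbv13-1 in every region, region 3 of tumour 869 holds 47.6% Trbv3 where the other regions hold 93.6% to 95.2%, and tumour 870 changes from Trbv17 in regions 1 and 3 to Trbv13-2 in regions 5 and 7.

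A change of leading segment within a tumour was not seen in this arm alone. The leading Trbv segment differed among regions in 1 of 3 treated p53-/- tumours, in 1 of 4 untreated p53-/- tumours and in 1 of 6 treated p53+/- tumours. In the untreated tumour with such a change some region had only 13 Trbv counts. The constant segments varied as well. Trdc, the delta-chain constant segment (chromosome 14), stood at 16.5, 0, 0 and 1.17 CPM in tumour 857, 0, 41.9, 0 and 0.0577 CPM in tumour 869 and 0.337, 0, 74.7 and 10.3 CPM in tumour 870, with 18.5 to 173.3 CPM in normal thymus. Region 3 of tumour 869 and region 5 of tumour 870 were again the high ones. Trbc1, a beta constant segment, stood at 1051 CPM in region 3 of tumour 857 and at 153, 18.4 and 158 CPM in regions 5, 7 and 9. Its near copy Trbc2 lay at 5145 to 6610 CPM there, so how reads were shared between the pair bears on the Trbc1 values and was not tested.

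Notch signalling genes differed most between region 3 of tumour 869 and the rest of that tumour. Of 12 genes on the Notch list 8 were tested, and 5 were region-variable against 15% of all genes called (3 of 8 without region 3 of tumour 869). The median excess SD of the list was 0.75, against 0.27 over all genes. Among receptors, Notch1 (chromosome 2, 26457903 to 26516663) stood at 68.1, 469.5, 34.0 and 72.2 CPM in regions 1, 3, 5 and 7 of tumour 869, at 809.5, 368.2, 885.6 and 820.1 CPM in tumour 870 and at 360.2, 388.2, 669.7 and 757.5 CPM in tumour 857. Region 3 of tumour 869 lay above the normal thymus range of 63.0 to 153.1 CPM, where regions 1 and 7 lay within it and region 5 below it. Notch3, a related receptor, was also highest in region 3 and lowest in region 5 of tumour 869, with 10.6, 55.4, 7.46 and 8.49 CPM. In tumour 870 it stood at 95.3, 58.5, 193.0 and 132.1 CPM.

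Among targets, Dtx1 (chromosome 5, 120680202 to 120711927), a ubiquitin ligase, had the largest excess SD of the list, 1.70. That value rests on tumour 869, where it was 2.89 alone, against 0.43 in tumour 857 and 0.33 in tumour 870. Dtx1 stood at 0.388, 89.7, 0.863 and 0.808 CPM in tumour 869, at 117.8 to 237.9 CPM in tumour 857 and at 198.8 to 343.8 CPM in tumour 870. Of all 12 regions, regions 1, 5 and 7 of tumour 869 were the only ones below the normal thymus range of 13.6 to 32.2 CPM. Hes1, a transcriptional repressor, was at 1.81, 7.91, 1.65 and 1.097 CPM in tumour 869 and at 40.3 to 55.7 CPM in tumour 870. Heyl, a related repressor, went the other way in tumour 869, with 12.2, 2.71, 12 and 13.1 CPM, and divided tumour 870 at 58.5 and 34.6 CPM in regions 1 and 3 against 17.2 and 12.8 CPM in regions 5 and 7. Maml1, a coactivator (excess SD 0.39), Nrarp, a feedback inhibitor (0.27), and Rbpj (0.18) were not region-variable.

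Ccnd2, a G1 cyclin, had an excess SD of 1.41: it was at 55.0 CPM in region 3 of tumour 869 and at 1.17 to 2.33 CPM elsewhere in the tumour, and at 11.6 and 4.75 CPM in regions 5 and 7 of tumour 870 against 2.83 and 0.918 CPM in regions 1 and 3. Normal thymus held 54.4 to 163.5 CPM of Ccnd2. Over the remaining regions, without region 3 of tumour 869, the mean of Ccnd2 fell below the filter of 5 CPM, so its call rests on that library.

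Among the genes chosen for the study's theme, Ccnd2 and Notch1 were region-variable, with Ccnd2 passing the filter only through region 3 of tumour 869. Cdkn2a, the locus of the p16 and p19 inhibitors, was far above normal thymus (0.761 to 3.5 CPM) everywhere, at 361.1 to 420.2 CPM in tumour 857, 190.2 to 235.2 CPM in tumour 869 and 52.0, 93.5, 152.1 and 175.9 CPM in tumour 870. Its excess SD was 0.46 over the 3 tumours and 0.78 in tumour 870 alone. Myc stood at 57.3 to 105.0 CPM in tumour 857, at 82.6, 172.5, 90.7 and 75.2 CPM in tumour 869 and at 221.8 to 314.2 CPM in tumour 870 (excess SD 0.39). Excess SDs were 0.36 for Cdk6, 0.35 for Bcat1, 0.31 for Plk4, 0.25 for Trp53, 0.23 for Cetn2 and 0.20 for Ikzf1, a zinc-finger factor of lymphocyte development that stood at 448.4 to 1269 CPM. Cdkn2b lay below the filter, at 0.431 to 4.85 CPM.

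Outside the receptor segments and mitochondrial genes, which are given as groups, keratins and other epithelial genes were prominent among the most region-variable genes. Of 15 genes named for the largest excess SD in 2 or more tumours, 5 were keratins: Krt17, Krt8, Krt5, Krt18 and Krt14, with excess SDs of 2.34, 2.29, 2.29, 2.13 and 2.03. Krt5, a keratin of medullary epithelium (chromosome 15, 101707070 to 101712898), stood at 1.31, 19.1, 4.32 and 0.584 CPM in tumour 857, at 0.452, 95.1, 0.0816 and 0.116 CPM in tumour 869 and at 8.96, 1.41, 47.8 and 12.8 CPM in tumour 870. The highest region of each tumour was thus region 5, region 3 and region 5, and the normal range was 6.90 to 440.5 CPM. Fcgbp, an IgG-Fc binding protein of epithelia, had the largest excess SD of the named genes, 2.51, with 136.8 CPM in region 3 of tumour 869 against at most 0.393 CPM in its other regions, and 89.0 CPM in region 5 of tumour 870. Ccl21a, a chemokine of medullary epithelium and lymphatic vessels, reached 172.7, 234.8 and 211.3 CPM in the same 3 regions, against 21 to 43.1, 0 to 5.37 and 9.995 to 53.9 CPM elsewhere in the respective tumours.

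Of the 10 genes on the thymic epithelium list 5 were tested and 4 were region-variable, against 15% of all genes. The count of 4 did not change when any tumour or region 3 of tumour 869 was left out. Epcam, an epithelial adhesion molecule, had an excess SD of 1.56, and Ccl25, a chemokine of thymic epithelium, one of 0.32. The defining genes of cortical epithelium were near 0 in all 12 regions, with Psmb11 at no more than 0.509 CPM and Prss16 at no more than 3.73 CPM against 4.81 to 144.8 and 36.2 to 1083 CPM in normal thymus. Aire, of medullary epithelium, reached 18.9 CPM in region 3 of tumour 869 and 11.9 CPM in region 5 of tumour 870, with 0.913 to 44.4 CPM in normal thymus. The summed list ranged from 29.4 to 133.7 CPM in tumour 857, from 11.4 to 315.3 CPM in tumour 869 and from 15.4 to 179.2 CPM in tumour 870, with a normal median of 2187 CPM. In bulk tissue, fewer cells of a type and less RNA per cell cannot be told apart.

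The summed MHC class II and interferon-response lists were highest in region 3 of tumour 869 and region 5 of tumour 870, like the summed epithelial list, though single interferon genes differed (Ifit1 stood at 13.8 CPM in region 5 and 18.2 CPM in region 7 of tumour 870). All 6 tested MHC class II genes were region-variable, against 15% of all genes, with a median excess SD of 1.1. Without region 3 of tumour 869, 5 of 6 stayed so, against 12.1% of all genes. Cd74, the invariant chain, stood at 78.6, 734.4, 100.1 and 64.8 CPM in tumour 869, at 148.4, 69.5, 656.7 and 282.7 CPM in tumour 870 and at 51.9, 119.4, 46.0 and 28.1 CPM in tumour 857. Region 3 of tumour 869 and region 5 of tumour 870 were just below the normal range, which began at 735.5 CPM. Of 11 tested interferon-response genes 10 were region-variable, against 15% of all genes, with a median excess SD of 0.88. Without region 3 of tumour 869 the count was 4, against 12.1% of all genes. The filter was applied again in that run, so a gene can leave the count because it was no longer tested. Irf7, an inducer of interferon genes, stood at 4.20, 61.5, 4.79 and 8.08 CPM in tumour 869 and at 13.6, 5.68, 38.1 and 15.6 CPM in tumour 870, and Oas1a, an antiviral enzyme, had the largest excess SD of that list, 1.28. Ubd, a ubiquitin-like protein that interferon induces, reached 79.7 CPM in region 3 of tumour 869 and 32.3 CPM in region 5 of tumour 870.

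Markers of other cell types also differed between regions, and their part in the results on Notch1 and the receptor segments was not tested. Over all genes 15% were region-variable, and 12.1% without region 3 of tumour 869. Lists with 1 or 2 tested genes are too short to set apart from that share. For macrophages 10 of 12 tested genes were region-variable (6 without region 3 of tumour 869), and the summed list was 472.4, 1504, 856.4 and 609.6 CPM in tumour 869 and 1199, 922.5, 1961 and 1327 CPM in tumour 870. Lyz2, a lysozyme of myeloid cells, made up 781 CPM of the sum in region 3 of tumour 869, and the macrophage markers Adgre1 (11.2, 6.33, 19.8 and 16.1 CPM) and Itgam (19.9, 8.37, 20.01 and 26.8 CPM) were lowest in that region. For dendritic cells 2 of 2 tested genes were region-variable, with sums of 8.48, 72.4, 14.5 and 9.46 CPM in tumour 869. Without region 3 of tumour 869 the count was 1 of 1, since Ccr7 then fell below the filter. B cells had 1 tested gene, Blk, which was region-variable at an excess SD of 1.82. Ms4a1, a defining B-cell gene, reached 1.17 CPM at most. Plasma cells had 1 of 2 (Igkc, 1.64), cytotoxic lymphocytes 1 of 1 (Gzma, 0.70), and lymphatic endothelium 1 of 1, which was Ccl21a. No gene of neutrophils or lung epithelium passed the filter. The mesothelium list had 1 of 1 and the striated muscle list 0 of 1.

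Stromal markers varied too. Summed fibroblast and matrix markers were highest in region 3 of tumour 857, region 5 of tumour 869 and region 1 of tumour 870 (1193, 2156 and 946.9 CPM), and summed smooth muscle markers in regions 3, 3 and 5 (381.1, 300 and 114.6 CPM). In fibroblasts and matrix 11 of 12 tested genes were region-variable, against 15% of all genes. The median excess SD of that list was 0.64, against 0.27 over all genes. Col1a1, the main chain of collagen I, stood at 79.8, 10.7, 55.1 and 64.9 CPM in tumour 857, 139.2, 92.6, 300.4 and 162.5 CPM in tumour 869 and 94.4, 56.5, 108.4 and 50.3 CPM in tumour 870, so region 5 was the high one in tumour 869. Smooth muscle had 4 of 4 (2 without tumour 857), endothelium 4 of 8 (0 without tumour 857), fat 3 of 3 (1 without tumour 869) and red blood cells 4 of 4 (1 without tumour 869). Over all genes the share was 15.4% without tumour 857 and 15.5% without tumour 869. Haemoglobin and related transcripts summed to 1133 to 2231 CPM in tumour 857 and to 51.6 to 247.6 CPM in the others. Of the fat genes, Car3 stood at 1.49, 0.791, 5.42 and 35.6 CPM in tumour 869, high in region 7.

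Tumour 870 also divided by genes outside those lists. Mn1, a transcriptional coregulator (chromosome 5, 111417362 to 111457033), stood at 0.944 and 1.22 CPM in regions 1 and 3 and at 49.5 and 63.5 CPM in regions 5 and 7, against a normal range of 2.03 to 10.1 CPM. Kank4, a cytoskeletal adaptor (chromosome 4, 98754898 to 98817537), stood at 0.472 and 0.288 CPM against 35.5 and 99.8 CPM. Fgf13, a growth-factor homologue, was at 0 and 0.216 CPM against 21.5 and 23.8 CPM. These 3 genes divide tumour 870 as its Trbv segments do. Bves, a Popeye-family membrane protein, and Trnp1, a nuclear protein of progenitor proliferation, marked region 1 instead, at 57.4 and 184.8 CPM there against at most 3.09 and 11.8 CPM in its other regions.

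In tumour 869, Kank4 ran against region 3: 27.3, 1.36, 32 and 39.2 CPM. Ly6d, a surface protein of lymphoid progenitors, stood at 2.78, 305.7, 2.43 and 1.15 CPM there, at 247.1 to 312.5 CPM in all of tumour 857 and at 4.18, 3.16, 27.9 and 17.3 CPM in tumour 870. Its relative Ly6k was also high in region 3 of tumour 869 and higher in regions 5 and 7 than in regions 1 and 3 of tumour 870, with 57.9 CPM in region 3 of tumour 869 and no more than 0.635 CPM in the others, and 8.15, 11.9, 93.7 and 170.6 CPM in tumour 870. Icos, a T-cell costimulator, stood at 113.4 CPM in region 3 of tumour 869 against at most 1.33 CPM in the other regions. Among genes with near copies, whose counts are less certain, region 3 of tumour 869 held 80.7 CPM of Ear2, 65.9 CPM of Sprr2a2 and 105.3 CPM of Eno1b, where the other regions held at most 2.20, 0 and 3.67 CPM.

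In tumour 857, outside the receptor, mitochondrial and other genes given as groups, those with the widest regional spread were Krt14, Lcn2, Baiap2l1, Krt17 and Cxx1a. Krt14 and Krt17 were at 31.1 and 29.1 CPM in region 5, and at no more than 5.15 and 3.78 CPM in the others. Lcn2, a lipocalin, was at 33.0 CPM in region 5 against at most 1.19 CPM. Baiap2l1, an actin-bending adaptor, was at 74.4 CPM in region 3, 13.4 CPM in region 9 and 5.82 and 1.19 CPM in regions 5 and 7. Cxx1a was at 0 CPM in region 5 and 10.3 to 25.8 CPM in the others; it has near copies, its floor in region 5 was 2.91 CPM, and without that region its excess SD fell from 1.24 to 0.49.

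**Figure D3:**
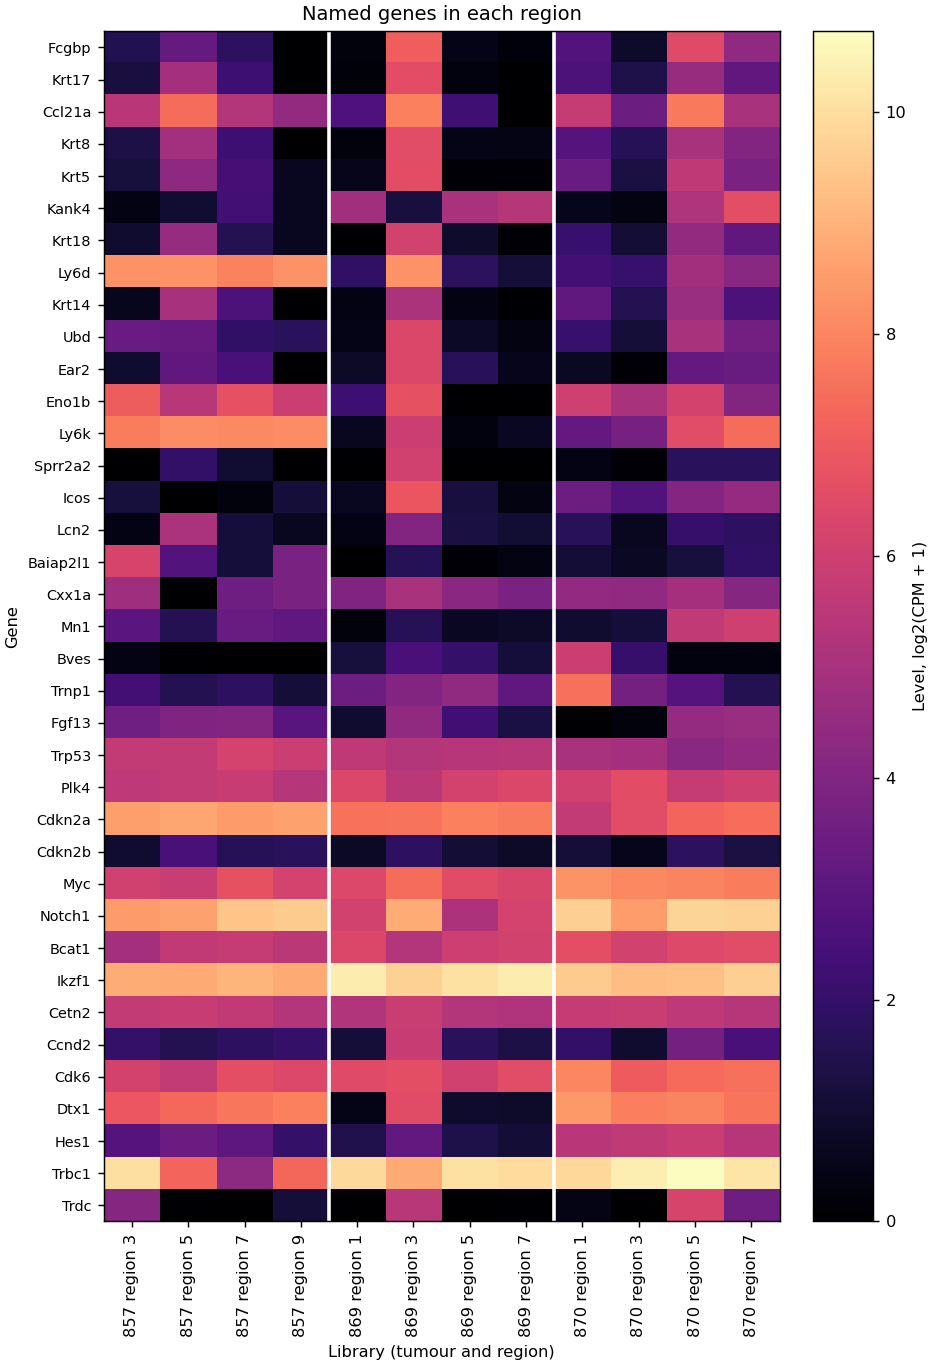
Level of each named gene as log2(CPM + 1), by colour, in the 12 regions; white lines separate the tumours. The rows from Fcgbp to Icos include the keratins, bright in region 3 of tumour 869 and region 5 of tumour 870, and Notch1 and Dtx1 are at their lowest in regions 1, 5 and 7 of tumour 869.

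For other functions the counts lay near or below the 15% of all genes in most lists, and several lists are too short to set apart from it. None of 17 cell-division genes was region-variable (median excess SD 0.32; Mki67, a proliferation marker, 0.46), and none of 10 centriole genes (0.30), 13 hypoxia and glycolysis genes (0.39; up to 2 were called when a tumour was left out) or 6 heat-shock genes (0.22). Of 12 T-cell identity genes only Cd4 (0.59) was called, and of 82 cytosolic ribosomal protein genes only Rps12 (0.65), with 4 called when tumour 857 was left out. Taken alone, tumours 869 and 870 each had 3 of the 12 T-cell identity genes called, against 12.6% and 17.4% of all genes. Tumour 869 alone also had 3 of the 10 centriole genes called. Among 10 p53 targets only Bbc3, a cell-death inducer (0.61), was called, at 23.5 CPM in region 3 of tumour 869 against 4.79 to 7.46 CPM in its other regions. Without that region Bbc3 fell below the filter and was not tested, and no other p53 target was called. Mdm2, the ubiquitin ligase of p53, was among the steadiest, at 42.4 to 86.4 CPM with an excess SD of 0.07. Immediate early genes had 1 of 6 (Nr4a1, 0.59), and ER and amino acid stress genes 2 of 8 (1 without region 3 of tumour 869). Of those, Asns, asparagine synthetase, was at 151.8, 43.3, 138.1 and 122.1 CPM in tumour 869 and at 59.4, 61.3, 15.4 and 11.4 CPM in tumour 870. Replication-dependent histones had 3 of 10, with a median excess SD of 0.43, and immediate early genes a median of 0.44, both above the 0.27 of all genes.

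On the immature thymocyte list 4 of 9 tested genes were region-variable, against 15% of all genes, and 2 of 9 without region 3 of tumour 869, against 12.1% of all genes. The 4 were Il2ra (0.94), Ptcra (0.87), Rag2 (0.63) and Rag1 (0.60). Rag1, a subunit of the recombinase that assembles receptor genes, stood at 372.9, 515.1, 998.7 and 1475 CPM in regions 1, 3, 5 and 7 of tumour 870, so both regions led by Trbv13-2 lay above both led by Trbv17. Il2ra, the interleukin-2 receptor alpha chain, was at 9.27 CPM in region 3 of tumour 869 and at no more than 0.471 CPM in its other regions. Tcf7, a transcription factor of the T lineage, was steadier (0.23).

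All 13 protein-coding genes of the mitochondrial genome were region-variable, against 15% of all genes. Their median excess SD was 0.92 and their median within-tumour share 100%. Summed, they stood at 19210, 7489, 15040 and 11220 CPM in tumour 857, 20470, 18640, 10420 and 15280 CPM in tumour 869 and 7547, 5692, 16670 and 27570 CPM in tumour 870. All regions were below the normal thymus range, which began at 37320 CPM, and in tumour 870 regions 5 and 7 lay above regions 1 and 3. The 4 largest excess SDs were 3.22 for mt-Co3, 2.72 for mt-Nd4l, 2.61 for mt-Nd3 and 2.41 for mt-Co2. Nuclear copies make the counts of such genes uncertain. The copy Gm28661 alone held 1637 to 5509 CPM, while mt-Co2 was listed at 0 in 3 regions of tumour 857. mt-Co1, which encodes a subunit of cytochrome oxidase, had an excess SD of 0.67 with levels from 2590 to 12170 CPM.

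Median expression over whole chromosomes also differed between regions. For each autosome the median over its genes of the shift in log2(CPM + 1) from normal thymus was taken and centred on the region's median gene, and each normal thymus set against the other 7 stayed between -0.11 and 0.08. The widest regional range was on chromosome 16 in tumour 870: -0.09, -0.02, 0.30 and 0.56 in regions 1, 3, 5 and 7, and 88% of its 333 genes were higher in region 7 than in region 1. The regions led by Trbv13-2 thus stood above both the normal range and the regions led by Trbv17. On that chromosome 112 of 333 genes (33.6%) were region-variable in tumour 870, against 17.4% of all genes in that tumour.

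In tumour 869, region 3 stood apart on chromosome 9, at 0.14 against -0.30, -0.27 and -0.25 in regions 1, 5 and 7, and on chromosome 4, at 0.21 against 0.54, 0.55 and 0.60. Of the 628 genes on chromosome 9, 81.7% were higher in region 3 than in region 5. On chromosome 14 all 4 regions of the tumour lay above normal and close together, at 0.62 to 0.69. Regions 1, 5 and 7 of tumour 869 were not uniform. On chromosome 17, 84.7% of 570 genes were higher in region 1 than in region 7. On chromosome 8, region 7 stood at -0.04 against 0.10 and 0.11 in regions 1 and 5. In tumour 857 the widest regional range was on chromosome 17, where region 3 was highest, at 0.10 against -0.33, -0.27 and -0.12 in regions 5, 7 and 9. Measured from the tumour mean in place of normal thymus, the range reached 0.2 on 5 autosomes of tumour 857, 5 of tumour 869 and 3 of tumour 870. These are shifts in expression; DNA copy number was not measured in these files.

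**Figure D4:**
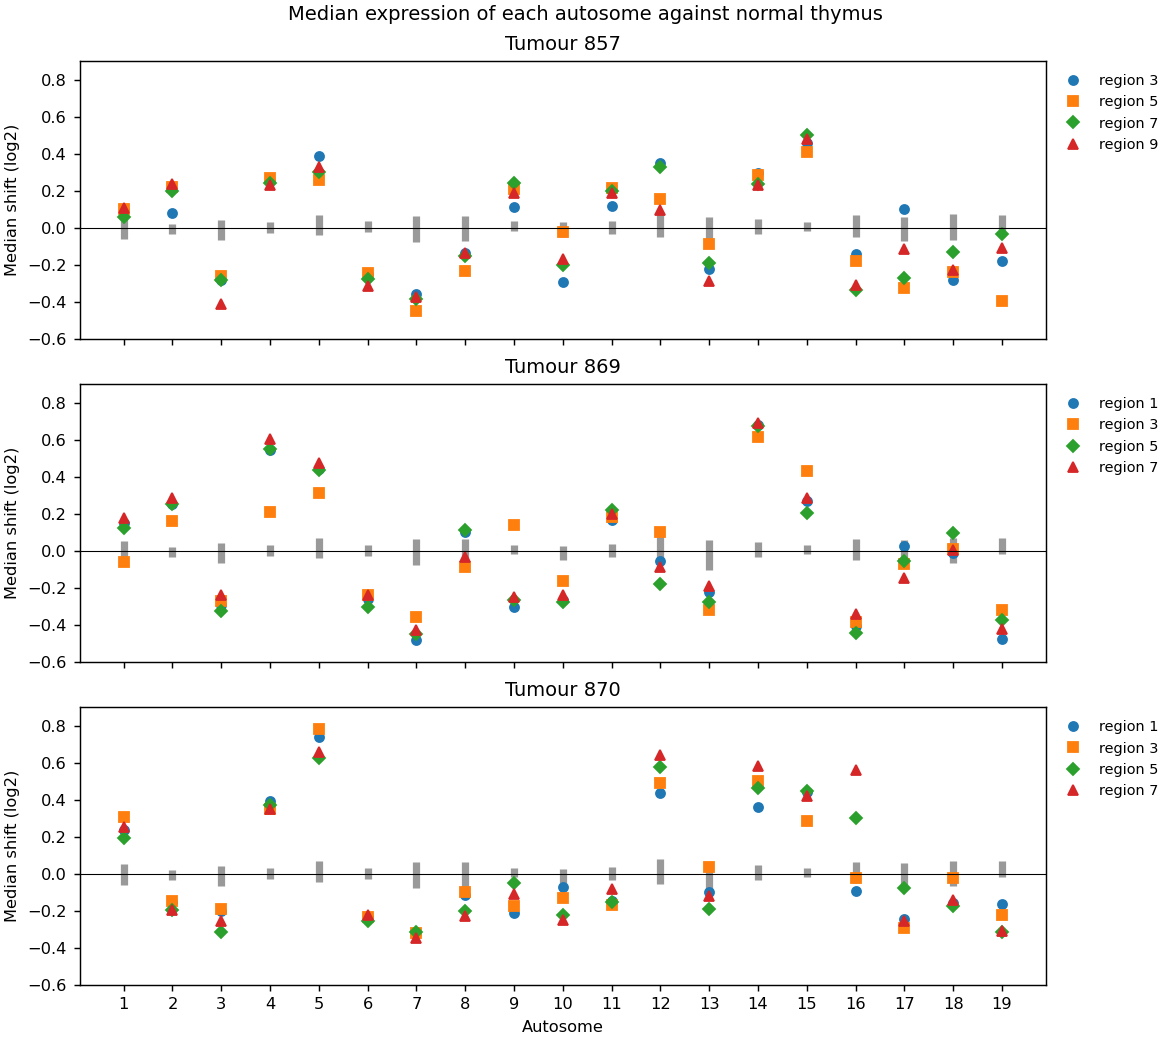
Median shift of each of the 19 autosomes from normal thymus in log2(CPM + 1), centred on the median gene, with 1 symbol per region; grey bars span the 8 normal thymuses, each against the others. Chromosome 16 of tumour 870 (-0.09 to 0.56), chromosomes 4 and 9 of tumour 869 and chromosome 17 of tumour 857 separate regions of the same tumour.

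The regional differences were then set against the other tumours with several biopsies, with the tumour as the replicate. The regional distance, the mean of 1 - r over pairs of regions, was 0.0479, 0.0572 and 0.0514 in tumours 857, 869 and 870, or 0.0522 ± 0.00468 (SD, n = 3). It was 0.0264 ± 0.00997 (SD, n = 4) in untreated p53-/- tumours, and all 3 treated values lay above all 4 untreated ones. The exact two-sided permutation test gave p = 0.0571 (adjusted over 2 comparisons 0.114), which is the smallest that 3 against 4 tumours can give. Treated p53+/- tumours averaged 0.0359 ± 0.019 (SD, n = 6) and ranged from 0.00972 to 0.062, overlapping the treated p53-/- values (exact permutation p = 0.214, adjusted 0.214). Without region 3 of tumour 869 that difference was 0.00215 in place of 0.0163 (exact permutation p = 0.881). With a filter of 1 CPM the difference from untreated tumours was 0.017 (exact permutation p = 0.114), and with a pseudocount of 5 that from p53+/- tumours was 0.0106 (exact permutation p = 0.333). Region 3 of tumour 869 and depth also bear on this: without that region the difference from untreated tumours was 0.0117 in place of 0.0258 (exact permutation p = 0.4), and with all libraries thinned to the depth of the shallowest it was 0.0217 (p = 0.114). The shallowest untreated regional library was deeper than every library of tumour 857.

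The regional chromosome spread, the mean over 19 autosomes of the SD among regions of the autosome's median, gave 0.07, 0.0711 and 0.0682 in tumours 857, 869 and 870. Untreated p53-/- tumours had 0.03 ± 0.00976 (SD, n = 4) with a highest value of 0.0392, and the exact permutation test gave p = 0.0571 (adjusted 0.114), again the smallest possible. Treated p53+/- tumours had 0.0479 ± 0.0242 (SD, n = 6), from 0.0188 to 0.0802, and did not separate from treated p53-/- tumours (exact permutation p = 0.214, adjusted 0.214). Without region 3 of tumour 869 the difference from untreated tumours was 0.0248 (p = 0.171, exact permutation), and that from p53+/- tumours 0.00694 in place of 0.0219 (p = 0.762, exact permutation).

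**Figure D5:**
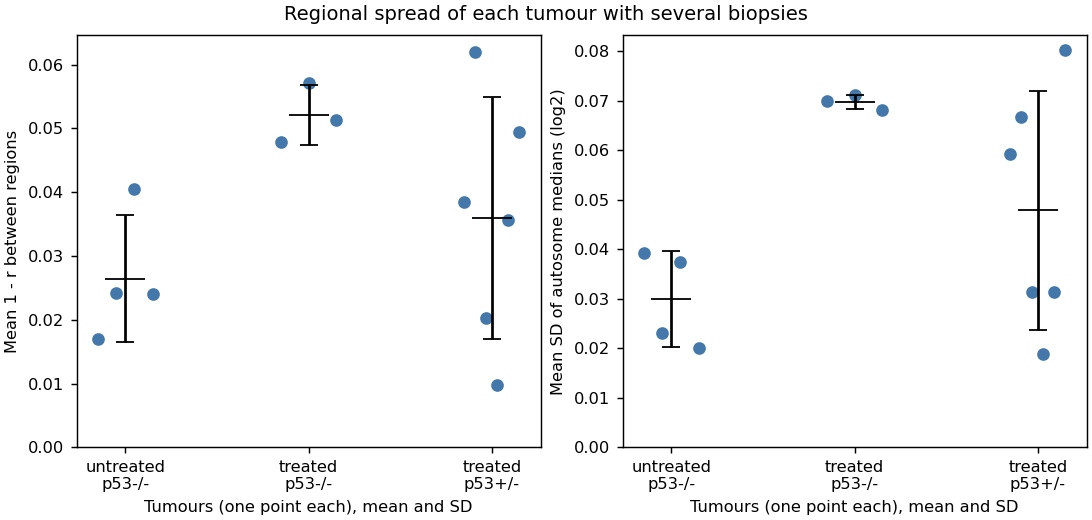
Regional distance (left) and regional chromosome spread (right) of each tumour with several biopsies, 1 point per tumour, with the mean and SD of each arm. The 3 treated p53-/- tumours lie at 0.0479 to 0.0572 and 0.0682 to 0.0711, above all 4 untreated p53-/- tumours and within the range of the 6 treated p53+/- tumours.

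Gene by gene, the within-tumour SD was higher in treated than in untreated p53-/- tumours for 23 of 11351 genes (0.203%) and lower for 0 (0%), by limma on the log2 SD with Benjamini-Hochberg adjustment. At an unadjusted p under 0.05 there were 1701 genes, 1687 of them higher. Against treated p53+/- tumours 5 genes were higher (0.044%) and 0 lower (0%), with 886 at an unadjusted p under 0.05, of which 855 were higher. Of all genes tested, 85.5% and 76.7% had the higher SD in treated p53-/- tumours in the respective comparison. Counting variance was not subtracted from these SDs, and every library of tumour 857 was shallower than every untreated regional library. The part of depth in these percentages and in the unadjusted counts was not tested. The counts of 23 and 5 genes rest on single libraries and tumours: without region 3 of tumour 869 no gene was called in either comparison. Against untreated tumours there were 10 genes without tumour 857, 15 without tumour 869, 3 without tumour 870 and 14 without the shallowest library, and against p53+/- tumours 3 without tumour 857 and 2 without tumour 869.

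Receptor segments led both comparisons. Trdc had the lowest p against p53+/- tumours and Trbv13-2 against untreated p53-/- tumours, where its SD was 1.72, 3.40 and 1.85 in tumours 857, 869 and 870 against 0.102 to 0.132 in the 4 untreated tumours (log2 ratio 3.77 ± 0.59 SE, limma adjusted p = 1.81e-05). The SD of Trdc was 1.95, 2.7 and 2.92 against 0 to 0.673 in the same untreated tumours (log2 ratio 3.89 ± 0.62 SE, limma adjusted p = 4.77e-05). A gene that is barely expressed in a tumour has an SD near 0 there.

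The other genes named in the comparison with untreated tumours were Lrrc57, Nagpa and Cers4. Cers4, a ceramide synthase, stood at 50.6, 1.29, 5.49 and 3.77 CPM in tumour 870 and at 7.17, 13.4, 25.6 and 8.54 CPM in tumour 869, with a log2 SD ratio of 2.76 ± 0.60 SE (limma adjusted p = 0.0168). Nagpa, an enzyme of lysosomal targeting, stood at 18.6, 14.2, 33.3 and 40.0 CPM in tumour 870 (ratio 2.28 ± 0.49 SE, limma adjusted p = 0.0151). Lrrc57 stood at 29.7, 24.8, 16.9 and 13.4 CPM there (ratio 2.20 ± 0.46 SE, limma adjusted p = 0.0136). Nagpa lies on chromosome 16 and was higher in regions 5 and 7, as that chromosome was. Uty, a Y-linked histone demethylase, was named against p53+/- tumours (2.64 ± 0.51 SE, limma adjusted p = 0.00639). Of the 6 p53+/- mice 5 are labelled female and none of those 5 held over 20 CPM of Y-linked genes, so for Uty the arm and the sex cannot be told apart. The 4 untreated p53-/- mice are all labelled male. Krt5 had a high SD in untreated tumours too, 1.27 to 3.15 against 1.64 to 3.17 in the treated ones (ratio -0.06 ± 0.53 SE, limma adjusted p = 0.958); this does not show that its spread was the same in both arms.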

How the data were processed

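RNA of frozen thymic tissue was sequenced, and the deposited table holds expected counts per gene from RSEM for 51826 genes in 81 libraries, not scaled between libraries by the authors. The submitters' processing notes list mm10, CASAVA 1.8, fastp, STAR 2.7.2b and RSEM 1.1.17, with no roles or order, and strandedness is not given in the sources used here, so overlapping antisense genes cannot be told apart. Of the values, 14.25% were not whole. They were rounded for edgeR 4.0.16 and DESeq2 1.42.0 and used as deposited elsewhere. Gene names and positions came from GENCODE M21 (GRCm38), to which 99.63% of identifiers matched.

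Counts were scaled to CPM by library total. For genes with a mean of at least 5 CPM, log2(CPM + 1) was split into a within-tumour mean square and a between-tumour component, and the counting variance was subtracted (delta method). The pseudocount of 1 shrinks the spread of low genes. A gene high in a single region can pass the filter through that region alone, as Ccnd2, Ear2, Bves and Baiap2l1 did. Tumours were compared by edgeR's quasi-likelihood F-test, and within-tumour SDs between arms by limma 3.58.1 on log2(SD + 0.05), both with Benjamini-Hochberg adjustment at 0.05. The SDs compared by limma still held the counting variance. Single values per tumour had two-sided exact permutation tests. The variance split, the F-test and the limma comparison were tested on simulated data. Regions of a tumour share a mouse, and nothing states that they are independent, so p-values over regions measure only the spread between these samples. Intervals are Wilson 95% and, like the floor of 3 counts, cover counting error only.

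Named genes were the 15 with the largest excess SD among those over 0.5 in at least 2 tumours, the 5 largest in each tumour, the 6 with the largest between-tumour component, the 3 of lowest p in each limma comparison, the study genes, and the extremes of each list. Receptor and immunoglobulin segments, pseudogenes, predicted genes and ribosomal, mitochondrial and small RNA genes were given as groups. Other genes (defining cell-type markers, further list members and Trbc2) were named after their values were seen. Some named genes are not reported here. The members and lists were chosen with earlier results of these data known. The alternatives covered scaling, pseudocount, the CPM filter, depth, thresholds, DESeq2 and leaving out each library or tumour.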

Additional observations from a re-analysis of the deposited data

Results flagged for a closer look

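Within each tumour the highest or lowest of the 4 regions was compared with the rest for 75 sets of values, and 15 lay farther from the others than Dixon's 95% critical value for the gap over the range allows; chance gives about 1 in 20, and these measures are not independent. Most of these concerned region 3 of tumour 869. Its mean correlation with its other regions was 0.9007, and its leading Trbv segment took 47.59% of Trbv counts. Its marker sums were 1826 CPM for MHC class II, 315.3 CPM for thymic epithelium, 300 CPM for smooth muscle, 267.6 CPM for plasma cells and 72.37 CPM for dendritic cells. Of single genes, Notch1 stood at 469.5 CPM, Myc at 172.5 CPM, Cetn2, a centriole protein, at 55.85 CPM and Ccnd2 at 55.02 CPM there, each above the other 3 regions.

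Fat markers summed to 206.4 CPM in region 7 of tumour 869. In tumour 857, region 3 held 381.1 CPM of smooth muscle markers and 254.2 CPM of fat markers, each above its other regions. In tumour 870, Notch1 was lowest in region 3, at 368.2 CPM. No cause of these values was tested.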

How the results depend on the processing

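The count of 1633 region-variable genes followed its settings: it was 834 with a pseudocount of 5, 2925 with a filter of 1 CPM, 620 with a filter of 20 CPM, 593 at an excess SD of 0.75, and 1306 to 1763 when 1 library was left out (lowest without region 3 of tumour 869). The median within-tumour share was 67.8% without tumour 857, 51.5% with all libraries thinned to the shallowest and 34.9% to 44.1% with 1 library left out. Genes differing among tumours numbered 4285 with a log2 difference of at least 1 and 5937 to 8526 with 1 library left out. Biopsy numbers do not pair the regions (correlations of same-numbered regions from -0.289 to 0.219); with the biopsy number as a block, 5037 genes were called, 4916 of them among the 7042. The 23 genes more variable than in untreated tumours became 11 with a filter of 1 CPM, 35 with an offset of 0.2 on the SD, 14 without the shallowest library, 3 to 15 without 1 treated tumour, and 0 without region 3 of tumour 869. The 5 against p53+/- tumours became 0 with a filter of 1 CPM, 8 with the larger offset, 2 to 5 without 1 treated tumour, and 0 without region 3 of tumour 869. Leaving out 1 tumour moved the difference in regional distance between 0.0226 and 0.0305 (untreated) and 0.0111 and 0.0215 (p53+/-), and that in chromosome spread between 0.0365 and 0.0429 and between 0.016 and 0.0283; the last value, without p53+/- tumour 908, had an exact permutation p of 0.0357. The difference in regional distance was 0.017 (untreated) with a filter of 1 CPM and 0.0106 (p53+/-) with a pseudocount of 5. The runs without region 3 of tumour 869 in the comparisons between arms were chosen after seeing the data. The causes of these shifts were not tested. Depth limits tumour 857 most, where low genes carry few counts.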

Other observations

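Blk, a Src-family kinase of B cells and of some T-lineage cells, stood at 136.3 CPM in region 1 of tumour 870 and at 7.19, 20.8 and 31.1 CPM in its regions 3, 5 and 7. Within tumour 857, Trbv5 took 13.9% of Trbv counts in region 3 and 1.03% to 1.67% in the other regions, and Trbv13-2 ranged from 1.83% in region 3 to 17.2% in region 5. In tumour 870, Trbv4 took 8.16% in region 7 and no more than 0.744% in the other regions.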
